A study of Drosophila melanogaster with 7 samples.

Results

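A pair of genes on chromosome arm 3L whose names come from the fly sex determination pathway, tra (transformer) and dsx-c73A, were read in a comparison of larval nervous systems with and without neuronal knockdown of the chromatin remodeller ISWI. They are 2 of the 2366 genes in the authors' deposited table and were chosen by name, with their fold changes in this comparison already known. Their values in it are therefore a description, and no test of them is offered beyond the p the authors deposited. Drosophila melanogaster larvae at the middle of their last instar gave the RNA, from dissected nervous systems (central brain with ventral nerve cord), 4 days after egg lay at 25 °C. The 3 control libraries came from larvae of genotype elav-GAL4; +. The 4 knockdown libraries came from elav-GAL4>UAS-ISWI RNAi larvae, in which elav-GAL4, a driver active in neurons, expresses a hairpin that targets Iswi, the gene of the ATPase in ISWI-type remodelling complexes. Every library thus carried the driver. Each was a pool of 40 brains, and the labels call the pools biological replicates. Glia and other cells without elav-GAL4 activity contribute RNA to the same libraries. The labels do not give the sex of the larvae. The deposited header calls the control attp2, the name of a transgene landing site on 3L, while the labels give the driver alone. Each group is 1 genotype, so the knockdown and any difference between the stocks cannot be told apart.

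Sex in flies is set by a chain of RNA splicing decisions. In females the RNA-binding protein Sxl (Sex lethal) blocks a splice site in tra transcripts, and only then is a full-length Transformer protein made. Transformer acts with Tra2 and SR proteins on transcripts of dsx (doublesex) and fru (fruitless), whose sex-specific products direct sexual differentiation of the body and of neurons. In males tra RNA is present but is spliced to a form with an early stop. The total of tra RNA therefore does not tell which form was made. The deposited description of dsx-c73A is doublesex cognate 73A. That name marks a relation to doublesex and a place on the chromosome, and does not by itself state control by Doublesex. No role is assigned to its product here.

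The annotation places both genes close together on 3L, a property not used to choose them. dsx-c73A (FBgn0261799) runs from 16422795 to 16451958 on the minus strand of build BDGP6, and tra (FBgn0003741) from 16590059 to 16591050, also on the minus strand. The 2 positions are the same in the deposited table and the reference annotation. The genes lie 138100 bases apart, with 17 annotated genes wholly between them, and 4 of these are listed by the authors' deposited table.

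The gene structures differ widely. dsx-c73A has 1 annotated transcript of 5 exons and 3496 exonic bases in a gene of 29164 bases. Its first intron of 23231 bases takes up 79.7% of the gene, and an annotated transposable element insertion of 2285 bases lies in that intron. The reading frame holds 852 codons. The whole gene sits within CG33158, a gene of 76964 bases on the plus strand, but shares 0 exonic bases with its exons. tra is compact, with 992 bases and 2 annotated transcripts. tra-RA has 687 exonic bases and a reading frame of 197 codons. tra-RB keeps 175 bases that tra-RA removes with its first intron, and its reading frame ends after 36 codons. These correspond to the female-specific form and to the form made in both sexes. Every base of tra-RA is also in tra-RB, so the deposited value per gene adds both forms. At its 3′ end tra overlaps 74 exonic bases of l(3)73Ah on the plus strand, 8.58% of the exonic bases of tra, and its start lies 156 bases from the end of spd-2. The libraries were made with a directional kit, but the sources used here do not give whether counting used strand. How much of the tra count falls in the overlap with l(3)73Ah is therefore uncertain. Whether unspliced RNA of CG33158 adds to the dsx-c73A count is uncertain for the same reason and was not tested.

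**Figure D1:**
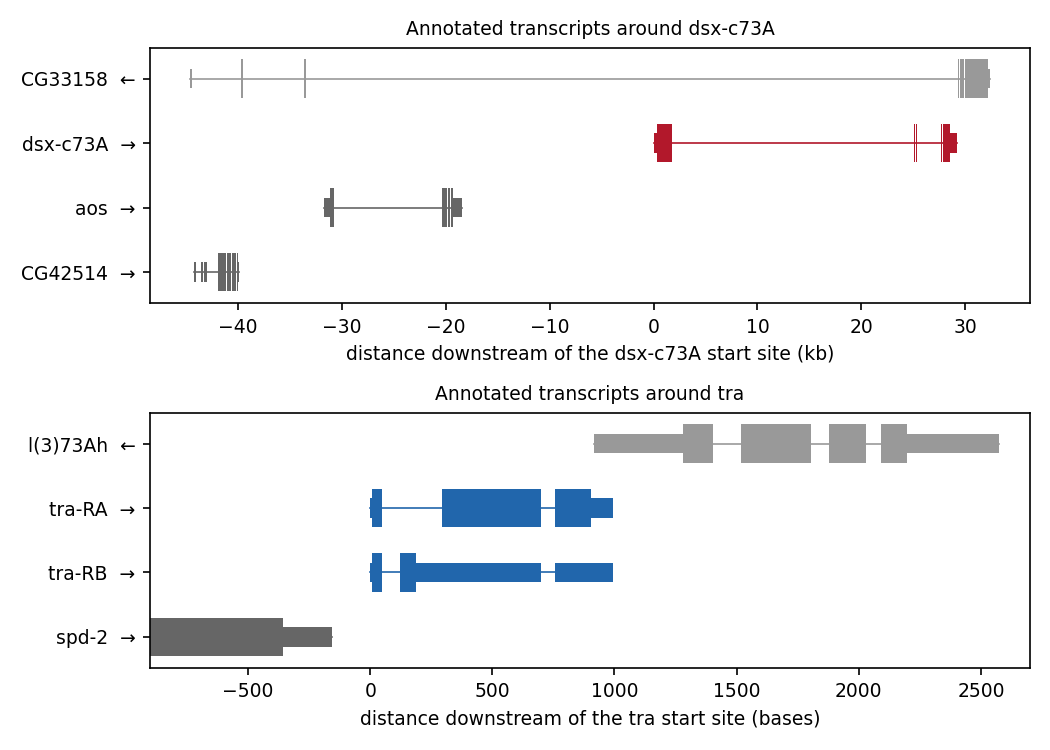
Annotated transcripts around dsx-c73A (top, distance from its start site in kb) and tra (bottom, in bases), with thick boxes for coding and thin boxes for noncoding exon parts, lines for introns, and arrows for the direction of transcription (right: same strand as the gene named in the title). dsx-c73A lies inside CG33158 with no shared exon, tra-RB keeps 175 bases that tra-RA lacks, and the 3′ ends of tra and l(3)73Ah overlap by 74 bases; spd-2 runs past the left edge.

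dsx-c73A RNA was almost lost with the knockdown, while tra RNA was lower by 23.7%. For Iswi, the targeted gene, the authors' deposited table gave a log2 fold change of -2.03 with an implied SE of 0.06. Library-level values were not used here, and the error given is the one implied by the authors' p, taken as that of a Wald test.

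For dsx-c73A the authors' deposited table gave a log2 fold change of -5.02 (implied SE 0.22) at an adjusted p of 1.3e-109. Its knockdown level was 3.09% of the control level (95% interval 2.28% to 4.17%), or 32.4-fold lower. Over the 7 libraries the authors' deposited table gave it a mean normalised count of 244. With 3 control and 4 knockdown libraries, that mean and that fold change imply about 547 normalised counts per control library and 16.9 per knockdown library. Some reads assigned to dsx-c73A therefore remained in the knockdown libraries, and whether any came from CG33158 RNA was not tested. These are averages per group, and the table does not show whether each library shared the loss.

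For tra the authors' deposited table gave a log2 fold change of -0.39 (implied SE 0.11) at an adjusted p of 0.0089. The knockdown level was 76.3% of the control level (95% interval 66.0% to 88.2%), which is 23.7% lower. At a mean normalised count of 372 in the authors' deposited table, the implied group averages were 430 for control and 328 for knockdown. The call for tra did not hold under Bonferroni adjustment (adjusted p of 1), while that for dsx-c73A did. The 95% intervals of the 2 genes are far apart on the log2 scale, from -5.45 to -4.58 for dsx-c73A and from -0.60 to -0.18 for tra. The genes differ by 4.63 in log2 fold change.

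Per kb of exon, tra was the more abundant of the pair in both groups. The implied control level was 499 normalised counts per kb for tra and 157 for dsx-c73A, a ratio of 3.19. In the knockdown these levels were 381 and 4.83, a ratio of 78.8.

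**Figure D2:**
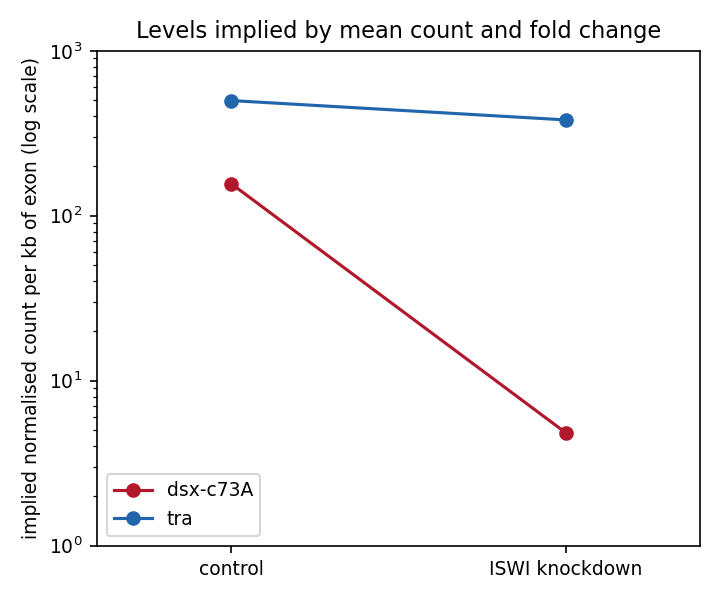
Normalised counts per kb of exon (log scale) in control and ISWI knockdown, as implied by the authors' mean count and fold change, with 1 point per group for each gene and no values per library or error bars. The tra line drops slightly from 499 to 381, and the dsx-c73A line drops from 157 to 4.83.

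Among all tested genes the 2 members hold different places. From its adjusted p values, the authors' deposited table rests on 10775 tests, of which 501 (4.65%) passed an adjusted p of 0.05 and 279 (2.59%) passed with a lower level. Both members are among those 279 by the choice made here, so nothing is read from that count. The median log2 fold change of the 279 lower calls was -0.38, close to the -0.39 of tra in the authors' deposited table. Of these lower calls 131 had a more negative fold change than tra and 147 a less negative one. dsx-c73A ranked second by p, after Iswi, and tra ranked 309th of the authors' deposited table. Only 2 lower calls had a fold change below that of dsx-c73A, Gr68a and CG46059, and neither had a mean count above 3.42. The genes next to the threshold were CG16771 (adjusted p 0.0495) and, just outside, CG15814 (adjusted p 0.0509), where tra had an adjusted p of 0.0089.

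Precision was usual for tra and lower for dsx-c73A. Among the 605 listed genes with a mean count within 2-fold of that of tra, the median implied SE was 0.11, equal to that of tra. For the 474 listed genes within 2-fold of dsx-c73A the median was 0.13 and the upper quartile 0.16, against 0.22 for dsx-c73A itself. The implied knockdown level of dsx-c73A was 16.9 normalised counts per library.

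Fold changes most like those of the members were looked for among genes with a mean count within 2-fold, by the absolute difference in log2 fold change over this 1 contrast. The closest to tra were Vha36-3 (a subunit of the vacuolar proton pump), CG11425 and Spn42Da (a serpin), all at -0.39 per the authors' deposited table. Of these Spn42Da passed the threshold (adjusted p 1.5e-04), and Vha36-3 and CG11425 did not (adjusted p 0.254 and 0.174). dsx-c73A had no such companion. The nearest were rpk (ripped pocket, a DEG/ENaC channel), SoYb (of the piRNA pathway) and Myo81F (a myosin), which the authors' deposited table put at -1.39, -1.16 and -1.10. The smallest difference from dsx-c73A was thus 3.63 on the log2 scale. Large changes of the opposite sign did occur among listed genes within 2-fold of its mean count. CG15930 and v had positive fold changes larger in absolute size than that of dsx-c73A, and KFase one nearly as large. All of these were called higher.

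**Figure D3:**
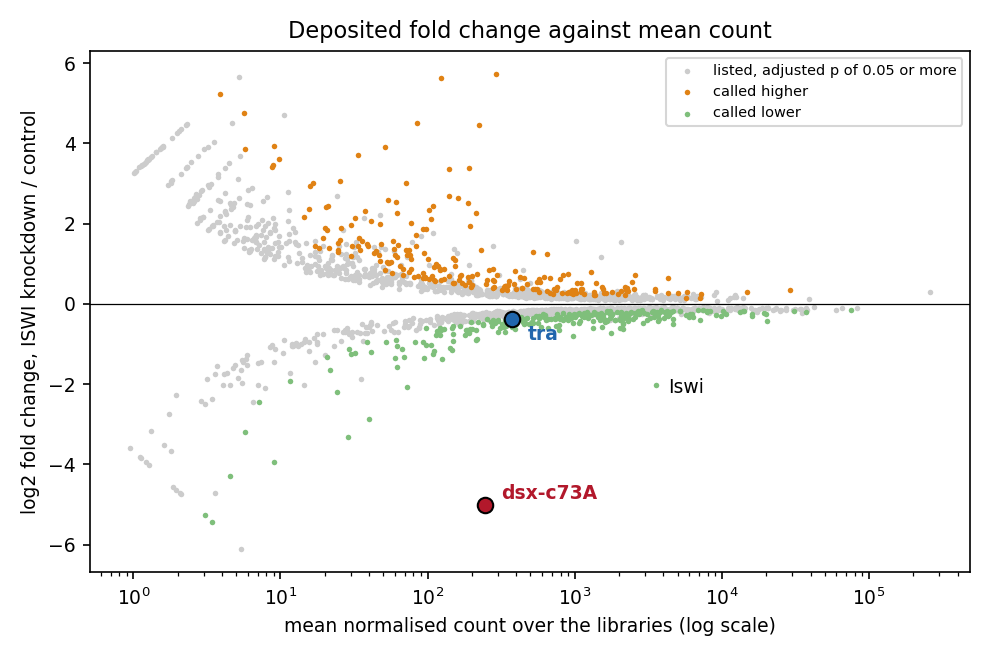
Log2 fold change (knockdown over control) against mean normalised count (log scale) for the 2366 genes of the authors' deposited table, coloured by whether the adjusted p was under 0.05 and in which direction. dsx-c73A, at a mean count of 244 and -5.02, stands apart from other lower calls of like abundance. Among higher calls of like abundance, CG15930 and v changed by more and KFase by nearly as much. tra, at 372 and -0.39, lies in the band of lower calls. The gap around 0 is there because the table ends at a p of 0.1.

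Around the members, fold changes of both signs were listed. Within 250 kb of the span from dsx-c73A to tra the annotation holds 149 genes other than transposable elements. The authors' deposited table lists 18 of them, or 12.1%, against 12.9% of annotated genes on all chromosome arms. Within 100 kb it lists 15 of 76, or 19.7%. Both counts include the 2 members, which were known to be listed when chosen. The 16 neighbours within 250 kb that are not members had 10 positive and 6 negative fold changes, per the authors' deposited table. Their median was 0.32. Of these neighbours 1 was called higher and 1 lower. All 16 were already listed at a p under 0.1. Of the 2312 tested genes listed in this way, 222 were called higher and 279 lower. Over all tested genes, listed or not, the shares were 2.06% and 2.59%. The higher one was CG33158, the gene that encloses dsx-c73A, which the authors' deposited table put at a log2 fold change of 0.25 with an implied SE of 0.08 (adjusted p 0.0309). The lower one was CG42514, which also lies inside CG33158, and which the authors' deposited table put at -0.44 with an implied SE of 0.11 (adjusted p 0.00165). aos (argos, a secreted inhibitor of EGF receptor signalling), also on the minus strand within CG33158, stood at 0.23 (adjusted p 0.184) per the authors' deposited table. On the outer side of CG33158, TyrRS (a tyrosyl-tRNA synthetase) stood at -0.15 (adjusted p 0.319) per the authors' deposited table.

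The genes that overlap or adjoin tra gave no call. l(3)73Ah, spd-2 (a centrosome component) and CG32163 are not in the authors' deposited table, which ends at a p of 0.1. The antisense RNA CR45895 was put at 0.59 (adjusted p 0.45) by the authors' deposited table, and Smn, the survival motor neuron gene, at -0.15 (adjusted p 0.465). Farther out, the authors' deposited table listed RAF2 at -0.18, CG32164 at -0.14, CG34247 at -0.64 and Gagr at 0.38, and none of these 4 passed an adjusted p of 0.1. For snRNA:U12, of the minor spliceosome, the authors' deposited table gave 0.90 (adjusted p 0.0595), and for Galphaf 0.40 (adjusted p 0.274). Per the authors' deposited table, CR45755, CR46033, PGRP-SB1 and CG13032 had positive values from 0.85 to 2.73 at mean counts of 18.7 or less, and none was called. Across 3L as a whole, 49 of 88 annotated calls were lower (55.7%), against 55.4% on all arms.

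**Figure D4:**
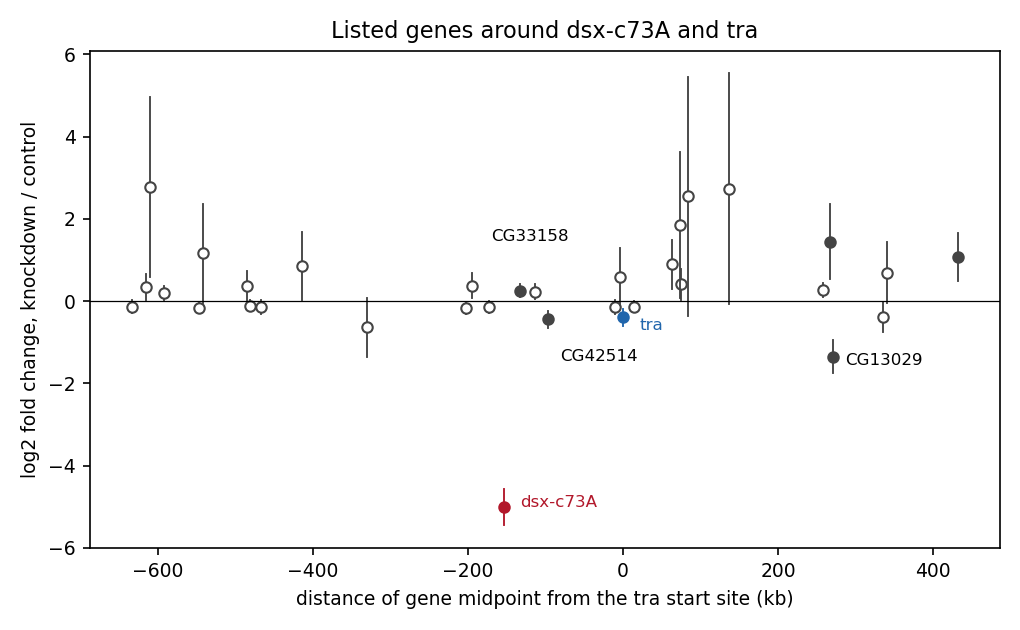
Log2 fold change with its implied 95% interval for listed genes within 500 kb of the span from dsx-c73A to tra, by the distance of the gene's midpoint from the tra start site in kb; filled points have a deposited adjusted p under 0.05. dsx-c73A is the only point near -5, and the other filled points lie between -1.35 (CG13029) and 1.45 (Rh4).

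No other gene of the sex determination lists passed the threshold. Of 42 genes in 6 lists, which run from the X-chromosome signal to sex-specific targets, the authors' deposited table lists 10. It lists 21.5% of tested genes and 12.9% of annotated genes on all chromosome arms. How many of the 42 were tested is unknown, and the same holds for the lists below. The fold changes of the 10 listed genes were 3 positive and 7 negative. Of tested genes 10.2% were listed with a positive and 11.2% with a negative value. The median was -0.14 for the 10 genes and -0.11 over all tested genes that the authors' deposited table holds. Both medians cover only genes listed at a p under 0.1, so neither gives a background level. The only call was tra itself, so that 0 were called higher and 1 lower. Over all tested genes 2.06% were called higher and 2.59% lower. tra is among the 10 listed and the 7 negative genes and was chosen with its fold change known. Nothing is therefore read from the lower call. These lists were chosen with earlier results of these data known.

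Upstream of tra, the X-chromosome signal genes dpn (deadpan) and da (daughterless) were the 2 of 9 listed, and the authors' deposited table put them at -0.19 (adjusted p 0.117) and 0.12 (adjusted p 0.439). Among the 8 genes that set or assist the Sxl switch only Mettl3, the RNA methyltransferase subunit listed as Ime4, was present in the authors' deposited table (0.24, adjusted p 0.125). Sxl was not listed.

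Among tra and its splicing partners 4 of 7 genes were listed, all with a negative fold change. Over all tested genes 21.5% were listed, and 11.2% were listed with a negative value. tra is among the 4 and was chosen with its fold change known. The shared sign is therefore not read as a joint drop of these genes. For the SR protein genes x16, SF2 and B52 the authors' deposited table gave -0.16, -0.14 and -0.11, at adjusted p of 0.099, 0.189 and 0.2. These values are not set against the median of -0.11 over listed tested genes, which covers only genes with a p under 0.1. At an adjusted p under 0.1, which 6.38% of tested genes passed, x16 would be added to tra. Their changes were smaller than that of tra, and at mean counts of 4535 to 15731 their implied SE ran from 0.05 to 0.06. tra2, the partner of Transformer in splice-site choice, was not listed, nor was the SR protein kinase gene Doa.

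Downstream, of the 5 terminal regulators dsx, fru, ix, dsf and retn the authors' deposited table lists 0. Absence from a table that ends at a p of 0.1 does not show that a level was the same. Sex-specific splicing of dsx and fru is outside a value per gene. Of 10 sex-specific targets, the yolk protein gene Yp3 was put at 2.14 by the authors' deposited table (implied SE 0.98, adjusted p 0.254), and bab2 (bric a brac 2) at -0.25 (adjusted p 0.432). Of the 4 genes of the Dmrt family, to which doublesex belongs, the authors' deposited table lists dmrt99B at -0.13 (adjusted p 0.432).

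**Figure D5:**
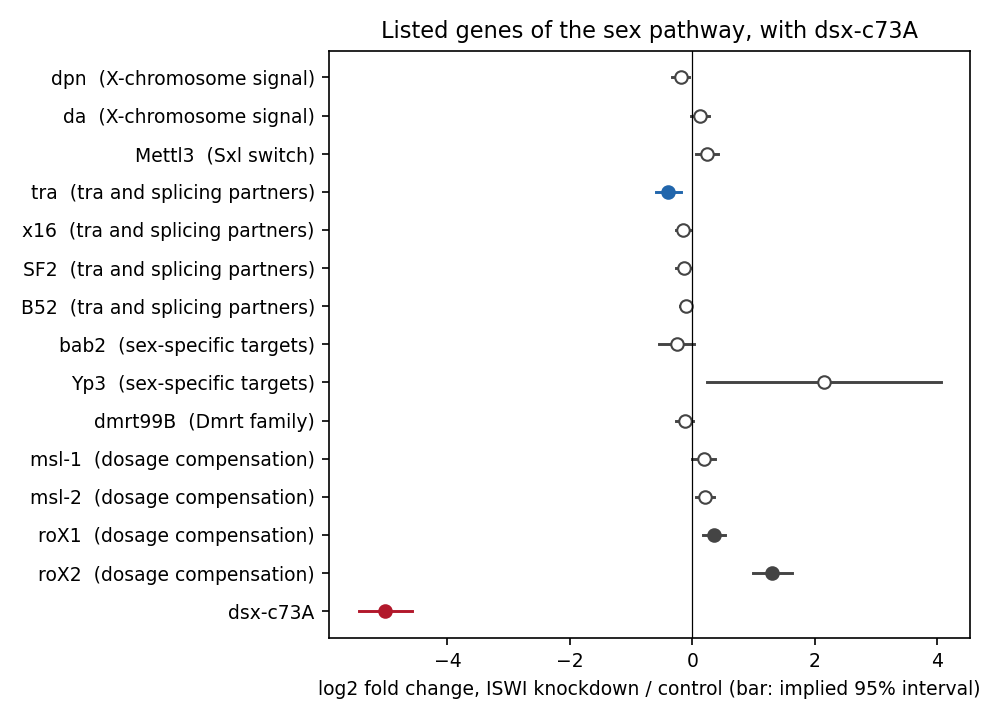
Log2 fold change (knockdown over control) with implied 95% intervals for the listed genes of the sex determination and dosage compensation lists and for dsx-c73A; filled points have a deposited adjusted p under 0.05. tra, roX1, roX2 and dsx-c73A are filled, and dsx-c73A lies at -5.02, apart from every other gene shown.

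Dosage compensation branches from the same switch, since Sxl represses msl-2 in females. Of 8 genes in this list 4 were listed, all positive, and 2 were called higher. Over all tested genes 10.2% were listed with a positive value and 2.06% were called higher. msl-3, mof, mle and Unr were not listed. For roX1 and roX2, RNAs of the male X, the authors' deposited table gave log2 fold changes of 0.36 (adjusted p 0.006) and 1.30 (adjusted p 4.7e-13), and for msl-2 and msl-1 0.21 (adjusted p 0.113) and 0.18 (adjusted p 0.334). roX RNA is male-biased in flies, and the part of the sex makeup of the pools in the levels of tra and dsx-c73A was not tested.

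Markers of other tissues were also listed in this comparison. From 13 hemocyte markers the authors' deposited table lists 8, all positive (0.96 to 1.54) with 2 called, and from 12 muscle genes 8, all positive (0.28 to 0.71) with 3 called. Among all tested genes 10.2% were listed with a positive value and 2.06% were called higher. The implied summed level of the listed hemocyte markers was 2522 normalised counts in control and 6365 in knockdown libraries, and that of the listed muscle genes 1866 and 2517. These sums cover only genes that passed the p limit, which does not select a sign. As all of those genes were positive, the sums add nothing to the signs of the single genes. The 2 called hemocyte markers were NimC1 at 1.01 (adjusted p 0.0235) and Pxn at 1.25 (adjusted p 0.0461), per the authors' deposited table. Hml and Ppn, with the highest mean counts of the listed hemocyte markers (2069 and 1513), were not called (adjusted p 0.166 and 0.293). From 9 fat body genes the authors' deposited table lists 2, both positive, with Idgf2, the called one, at 0.63. From 12 gonad genes the authors' deposited table lists 5, 4 positive and 1 negative with a median of 1.55, and piwi at 1.85 (adjusted p 1.1e-09) was the only call. The negative one was aub at -0.40 (adjusted p 0.288), per the authors' deposited table. Of 12 epidermal and cuticle genes 0 were listed. The part of other tissues in the levels of tra and dsx-c73A was not tested, and in pooled tissue fewer cells of a type and less RNA per cell cannot be told apart. Of 11 neuronal genes, the authors' deposited table lists Syx1A at 0.18 and ChAT at 0.13, with 0 called. Since the table holds no genes past its p limit, most markers of the labelled tissue could not be checked.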

How the data were processed

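The submitters' processing notes name STAR 2.5.0b, DESeq2 and build BDGP6; the sources used here do not give how reads were assigned to genes. Single reads of 100 bases came from 7 libraries, per the labels' protocols. The authors' deposited table gives, per gene, a base mean (a signal, the mean normalised count over libraries), a log2 fold change of knockdown over control, a p-value and an adjusted p-value. Its length column, per the file headers, was used as exonic length. All 2366 genes have a p under 0.1, and 54 with an adjusted p of 1 were outside the tests. Depth per library is unknown. The number of tests was derived by inverting the Benjamini-Hochberg formula, and checked on 20 simulated tables of 10775 genes, with the number found in 20. The standard error is the log2 fold change divided by the normal quantile of p, with 95% intervals. Levels per group were solved from base mean and fold change, which takes the fold change as unshrunken. A call is an adjusted p under 0.05. No model was refitted, and no values per library were used.

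Genes were named by rule: both members, Iswi, list members in the table, listed genes within 250 kb and genes touching a member, the 3 nearest fold changes within 2-fold of mean count, and lower calls under -1.5. Members and the 13 lists were chosen with earlier results of these data known. Of the sex pathway symbols, 50 of 50 matched the reference names. Positions use the reference annotation of the same assembly. No sequence was used here. Alternatives were other thresholds, a mean count minimum of 50, Bonferroni adjustment, another centring and windows of 100 and 500 kb. Python 3.11.15, pandas 2.3.3 and scipy 1.17.1 were used.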

Additional observations from a re-analysis of the deposited data

How the results depend on the processing

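dsx-c73A passed under Bonferroni adjustment, while tra, at a log2 fold change of -0.39, did not (adjusted p of 1). Relative to the median listed gene (-0.11 on the log2 scale) tra was at -0.28 and dsx-c73A at -4.91, both in the same direction. That median covers listed genes only, and whether the calls hold after such centring was not tested, since the threshold would need every tested gene. With an adjusted p under 0.01 the calls were 141 higher and 174 lower, against 222 and 279 at 0.05, and tra and dsx-c73A both stayed under 0.01. With an adjusted p under 0.1, 2 genes within 250 kb were called higher in place of 1, and 2 sex determination genes lower (tra and x16) in place of 1. Within 500 kb, 33 genes were listed and 3 called higher, in place of 18 and 1. Such counts can only grow with the window. As a share of annotated genes, 19.7% were listed within 100 kb, 12.1% within 250 kb and 13.4% within 500 kb. The other 10 alternative counts were within 1.5 times the value in use. No paired analysis was possible because the result comes from a deposited table without values per library. Leaving out a replicate was not run for that reason. Depth per library is unknown, so what it limits cannot be given.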

Other observations

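Calls with a log2 fold change below -1.5 numbered 15 in the authors' deposited table, and dsx-c73A and Iswi were the only ones with a mean count above 100. Gr68a, a gustatory receptor gene known from male foreleg neurons, also lies on 3L and was listed at -5.44 in the authors' deposited table, but at a mean count of 3.42 and with an implied standard error of 1.37. gammaTub37C, a gamma-tubulin of the female germline and early embryo, was at -3.32 in the authors' deposited table (mean count 28.6, implied standard error 0.45, adjusted p 3.4e-11), and CG46059 at -5.27 (mean count 3.06). Sr-CII (a scavenger receptor), Nha1 (a sodium-proton antiporter), Spn47C (a serpin) and Cpr64Ac (a cuticle protein) were at -2.87, -2.20, -2.06 and -1.64 in the authors' deposited table. CG33922, CG42753, CG18367, CG18088, CR45450 and CG15047 were at -4.30, -3.94, -3.19, -2.45, -1.92 and -1.57 in the authors' deposited table, with mean counts from 4.56 to 61.8.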
